A study of Mus musculus with 16 samples.

Results

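BMAL1 binding near the hepatocyte lineage transcription factor genes Foxa2, Foxa3, Onecut1, Nr2f2 and Hnf4a, and near Hnf4aos, the RNA gene antisense to Hnf4a, was described in mouse liver from chromatin immunoprecipitation and sequencing. The sites were all rows of the authors' merged peak table whose nearest gene was 1 of these 6 genes, at any distance. There were 8 such intervals of 7043, built from 16 of the 9986 peaks in the 8 BMAL1 lists. Nr2f2 had 3 intervals, Hnf4aos 2, and Foxa2, Foxa3 and Onecut1 had 1 each. No row carried the name Hnf4a itself, although both Hnf4aos rows lay inside the Hnf4a gene as RefSeq places it. The genes were chosen by the peak calls and -log10 q of these same libraries, male misaligned ZT12 above all, so their calls are given as a description with no test.

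The groups were misaligned and control C57bl6 mice of each sex, at ZT12 and at ZT0, kept under 12:12 light and dark. All mice, controls included, were 8 to 16 weeks old and ate a diet with 42% of calories from fat during the protocol. Each group had 1 BMAL1 library made from liver pooled from 3 to 4 mice, so no difference between groups can be set against replicate error. The 8 matching IgG libraries are not analysed here, and the labels do not describe the misalignment schedule. Whole liver also holds cells other than hepatocytes, and a peak does not show in which cells BMAL1 was bound.

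BMAL1 pairs with CLOCK and binds E-boxes, short DNA words of which CACGTG is the canonical one, and activates the transcription of clock genes and their targets. FOXA2 and FOXA3 are forkhead proteins that open and bind chromatin at liver genes. ONECUT1 (HNF6) and HNF4A, a nuclear receptor, are regulators of hepatocyte genes, and these factors are known to bind one another's genes. NR2F2 (COUP-TFII) is an orphan nuclear receptor that can bind HNF4A target sites and is also known from venous endothelium. Hnf4a is known to be read from an upstream and a downstream promoter, and the downstream one serves adult hepatocytes.

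Of the 8 intervals, 3 covered a start of the gene as RefSeq annotates it on GRCm38, at Onecut1, at the downstream Hnf4a start and at Foxa2. All 6 genes were found in the RefSeq promoter table, which holds 250 bases before to 50 after each start. The windows that hold a BMAL1 summit are printed 5′ to 3′ in the direction of the gene, because they are where peaks met annotated starts. Capitals mark CACGTG, which was searched on both strands. The windows are Onecut1 (chr9:74861671-74861970, plus strand), Hnf4a downstream start (chr2:163546905-163547204, plus strand) and Foxa2 (chr2:148045415-148045714, minus strand).
Onecut1: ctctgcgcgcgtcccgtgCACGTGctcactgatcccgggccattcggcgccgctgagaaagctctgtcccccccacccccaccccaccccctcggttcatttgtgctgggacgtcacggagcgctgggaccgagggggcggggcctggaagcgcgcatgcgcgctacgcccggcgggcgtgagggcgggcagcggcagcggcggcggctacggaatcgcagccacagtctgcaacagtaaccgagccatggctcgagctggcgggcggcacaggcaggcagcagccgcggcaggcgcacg
Hnf4a: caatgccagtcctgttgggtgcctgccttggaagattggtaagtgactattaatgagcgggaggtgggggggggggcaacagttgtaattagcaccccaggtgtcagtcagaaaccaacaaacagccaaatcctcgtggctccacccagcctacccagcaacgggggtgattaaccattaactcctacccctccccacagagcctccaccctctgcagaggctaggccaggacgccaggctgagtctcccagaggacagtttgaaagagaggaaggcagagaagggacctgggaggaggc
Foxa2: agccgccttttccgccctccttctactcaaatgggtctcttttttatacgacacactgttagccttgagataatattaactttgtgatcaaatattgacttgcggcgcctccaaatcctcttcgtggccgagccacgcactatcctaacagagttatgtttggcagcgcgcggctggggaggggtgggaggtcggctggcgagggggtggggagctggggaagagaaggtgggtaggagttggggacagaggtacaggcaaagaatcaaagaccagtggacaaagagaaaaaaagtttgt

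The Onecut1 window held CACGTG once, with its first base 232 bp before the start. This word lay 29.5 bp from the BMAL1 summit of male misaligned ZT12 and 6.5 bp from that of male misaligned ZT0, and inside both peaks. The Hnf4a and Foxa2 windows held no CACGTG, which says only that these letters are not in these windows. CACGTG stood in 7.15% of the 32851 RefSeq promoter windows, and in 32.1% of the 1067 windows that held a summit of male misaligned ZT12. With the looser word CANNTG, of which CACGTG is one form, the Hnf4a window had 2 matches and the Foxa2 window 1. CANNTG stood in 72.3% of all windows and in 70.6% of those with a summit of that library. CACGTT, a common variant of the E-box, was in none of the 3 windows and in 4.68% of all windows and 10.4% of those with a summit of that library. The GC content was 73.0% at Onecut1, 57.3% at Hnf4a and 51.7% at Foxa2, beside a median of 52.7% over all windows and of 64.7% over the windows with a summit of male misaligned ZT12.

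**Figure D1:**
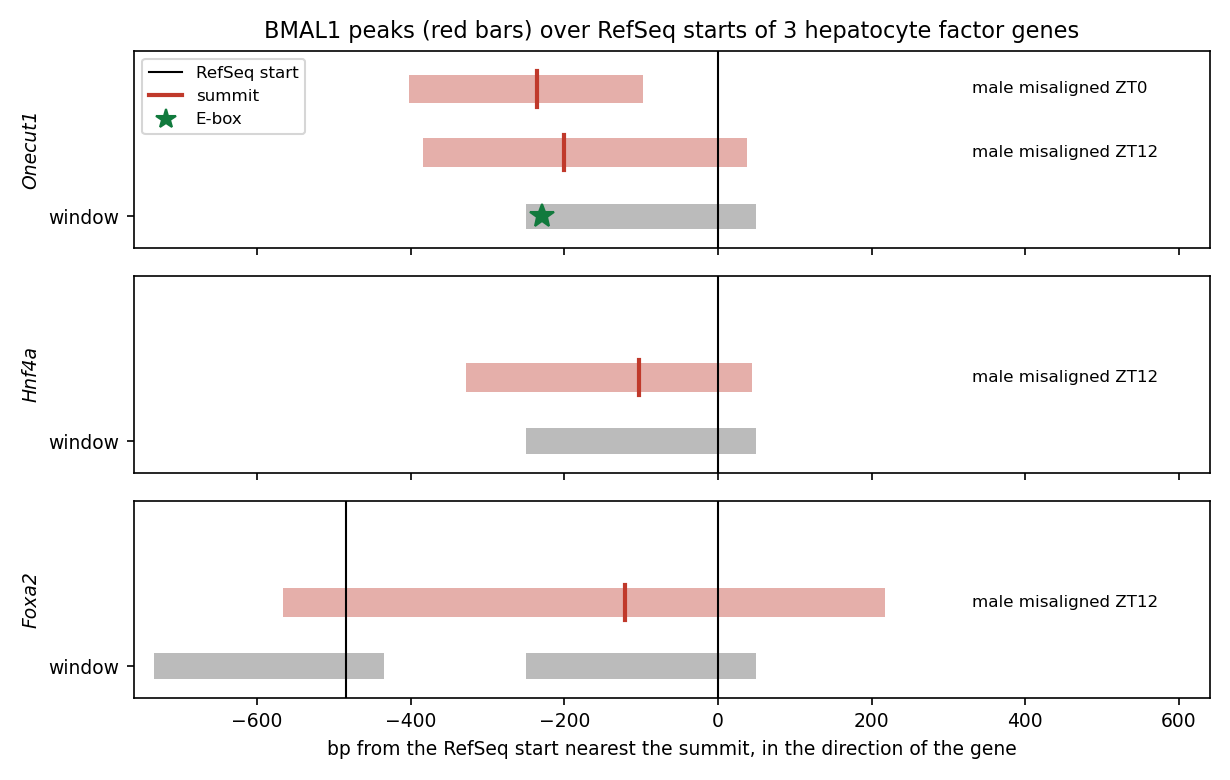
BMAL1 peaks (red bars, with the summit as a red line) at Onecut1, Hnf4a and Foxa2, by distance in bp from the RefSeq start nearest the summit. Grey bars are the promoter windows, black lines are RefSeq starts and the star is CACGTG, which lies next to the 2 Onecut1 summits.

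Peaks were far more numerous in some lists than in others, from 5542 in male misaligned ZT12 to 141 in female control ZT12. Read depth is unknown. Its nearest stand-in, the lowest local background among the peaks of a library, was 4.25 to 6.16 fragments. The core clock genes Per1, Nr1d1 and Dbp, textbook BMAL1 targets, had peaks in all 8 libraries. Their strongest peaks ranked 2 to 10, 1 to 8 and 4 to 21 in the lists. No marker of cholangiocytes, stellate cells or Kupffer cells (0 of 6 each) was the nearest gene to a peak in any library. The share of all RefSeq protein-coding genes ran from 0.356% in female control ZT12 to 12.7% in male misaligned ZT12. Of 6 endothelial markers 1 (Stab2) had a peak, in male misaligned ZT12. Counts of 0 or 1 of 6 are near such shares. Of 6 hepatocyte markers 4 had one in male misaligned ZT12 and 1 in female misaligned ZT0, where 12.7% and 3.82% of RefSeq protein-coding genes were the nearest gene to a peak. Within 10 kb of the authors' start these hepatocyte counts were 2 of 6 (background 8.90%) and 0 of 6 (2.94%). Stab2 had no peak within 10 kb.

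All 8 sites at the lineage factors were called in male misaligned ZT12, which held 78.7% of all 7043 intervals. Male control ZT12 held 1 (background 4.06%). The male ZT0 libraries held 3 (26.4%) when misaligned and 1 (5.21%) when control. In females there was 1 in misaligned ZT12 (3.08%), 0 in control ZT12 (1.96%), 2 in misaligned ZT0 (18.8%) and 0 in control ZT0 (3.17%). The misaligned libraries together gave 14 of the 16 peaks and the controls 2, while 89.7% of all 9986 peaks were in misaligned libraries. Male misaligned ZT12 alone called 4 of the 8 sites, beside 58.3% of all intervals, and the other 4 had calls in 2 or more libraries (21.5%). No control library called 6 of the 8 sites, beside 90.0% of all intervals. Without male misaligned ZT12, 4 intervals at 3 named genes (Hnf4aos, Nr2f2 and Onecut1) would remain.

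**Figure D2:**
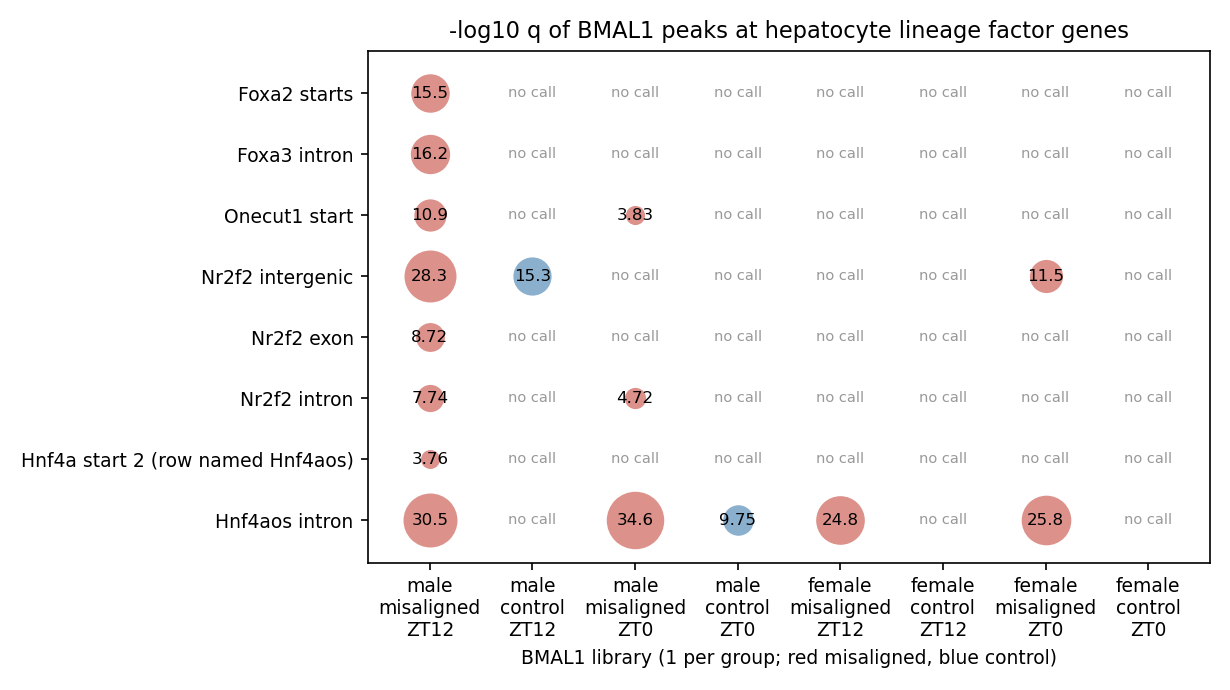
The -log10 q of each BMAL1 peak by site (rows) and library (columns), with circle area in proportion to it. Values depend on the depth of each library, so they rank peaks within a column, and the Hnf4aos intron site is the row with most calls, 5 of 8.

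The site with most calls lay within the Hnf4a locus. The interval on chromosome 2 from 163540539 to 163541040 was placed by the authors' detailed annotation in an intron of Hnf4aos, 931 bp from its start. Their short annotation gave an intron of a gene listed by an Ensembl ID that the files used here pair with no symbol. They gave the same ID as the promoter at the downstream Hnf4a start, in an interval that overlaps Hnf4a alone in RefSeq. RefSeq places the intron site inside both Hnf4aos and Hnf4a, between the Hnf4a starts. Its summits were 6315 to 6352 bp before the downstream start. Sequencing of immunoprecipitated DNA has no strand, so the site cannot be given to 1 of the overlapping genes. It was called in all 4 misaligned libraries and in 1 control library, male control ZT0. Intervals called in all 4 misaligned libraries made up 1.95% of the total, and 2.68% were called in 5 or more libraries. The 5 summits lay within 37 bp of each other. Over the 76 intervals with 1 peak in each of 5 libraries the median spread was 69.5 bp.

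The number of fragments at a summit was recovered from the authors' -log10 p and fold enrichment, since that number and the local background fix both. A 95% Poisson interval follows each count, and it covers counting error only. At the Hnf4aos intron site male misaligned ZT12 had 82 fragments (65.2 to 102) over a background of 14.2, and a fold enrichment of 5.47. Male misaligned ZT0 had 69 (53.7 to 87.3) over 8.12, with a fold enrichment of 7.68. Male control ZT0 had 37 (26.1 to 51.0) over 7.51, with a fold enrichment of 4.46. At ZT0 the male control peak had fewer fragments than the misaligned one, without overlap of the counting intervals. It also had fewer than male misaligned ZT12, again without overlap, but there time differs as well as treatment. These counts are not scaled for depth. Female misaligned ZT12 had 60 fragments (45.8 to 77.2) over 8.67, with a fold enrichment of 6.30. Female misaligned ZT0 had 56 (42.3 to 72.7) over 7.17, with a fold enrichment of 6.98. The female misaligned peaks overlapped each other in their counting intervals.

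By -log10 q the Hnf4aos intron site ranked 365 of 5542 in male misaligned ZT12 and 74 of 1864 in male misaligned ZT0, against 207 of 373 in male control ZT0. In females it ranked 45 of 221 in misaligned ZT12 and 123 of 1330 in misaligned ZT0. Lists of different length hold different numbers of weak peaks, so these ranks place the site within each list and show no change between libraries. The site had no call in male control ZT12, female control ZT12 or female control ZT0, whose weakest called peaks had 16, 20 and 17 fragments. A missing call sets no level, since a site under the threshold is not listed.

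As a rough scaling for depth, fragments above background were also divided by the library's lowest background. The scaled signal at the Hnf4aos intron site was 14.1 (10.5 to 18.3) in male misaligned ZT0, against 4.78 (3.01 to 7.06) in male control ZT0. The ratio of 2.94 stood beside a median of 1.74 over the 266 intervals called in both libraries with recovered fragments. The site was picked by its calls in these same libraries, so this ratio is a description. Between the sexes the scaled signal was 15.9 (12.0 to 20.6) in misaligned males and 8.36 (6.05 to 11.2) in misaligned females at ZT12. The ratio of 1.91 was below the median of 2.61 over 165 shared intervals. At ZT0 it was 14.1 in misaligned males and 9.65 (6.94 to 13.0) in misaligned females, a ratio of 1.46 beside a median of 1.05 over 547. The counting intervals did not overlap between the sexes at ZT12 and overlapped at ZT0. Between the times, ZT12 over ZT0 was 1.13 in misaligned males and 0.866 in misaligned females, beside medians of 1.57 and 0.738. These intervals leave out the error of the scaling and the spread between animals.

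**Figure D3:**
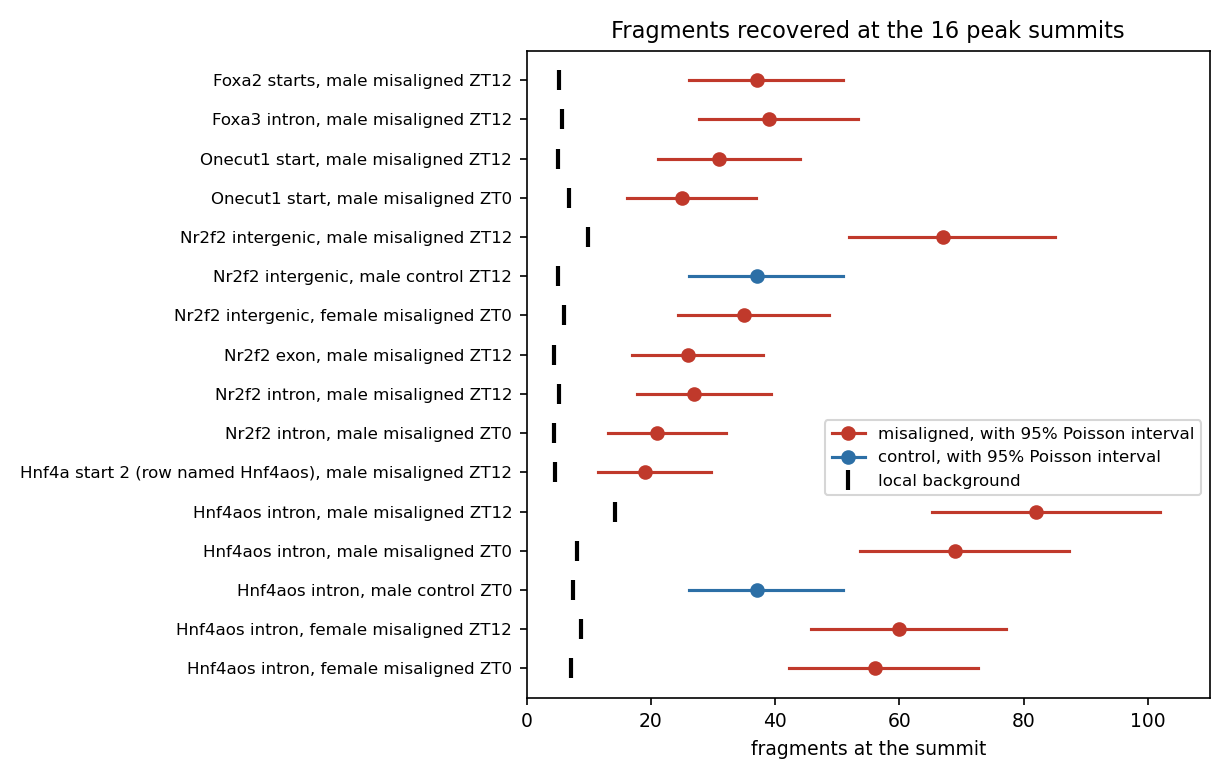
Fragments at the summit of each of the 16 peaks (points, misaligned in red and control in blue) with 95% Poisson intervals, and the local background (black ticks). Peaks are called for exceeding their background, so every point lies above it by selection. The points run from 19 fragments at the Hnf4a downstream start to 82 at the Hnf4aos intron site.

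The other row named Hnf4aos covered the downstream start of Hnf4a. The interval on chromosome 2 from 163546827 to 163547199 was given a distance of -5293 bp to Hnf4aos by the authors, who annotated it as a promoter of a gene given by an Ensembl ID with no symbol beside it. Its summit lay 103 bp before the Hnf4a start, in the window printed above. It was called in male misaligned ZT12 alone, with 19 fragments (11.4 to 29.7) over 4.48 and a fold enrichment of 3.65. This was the weakest of the 8 sites in that list, at rank 3741 of 5542.

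Onecut1 had peaks in the male misaligned libraries of both times and in no other. The interval on chromosome 9 from 74861519 to 74861959 also overlapped Gm33562, a neighbouring RefSeq gene. Male misaligned ZT12 had 31 fragments (21.1 to 44.0) over 5.10, with a fold enrichment of 5.25 and rank 1394 of 5542. Male misaligned ZT0 had 25 (16.2 to 36.9) over 6.76, with a fold enrichment of 3.35 and rank 1182 of 1864. The counting intervals overlapped, and the scaled ZT12 to ZT0 ratio of 1.44 was near the median of 1.57 over 976 shared intervals. The authors annotated the interval as a promoter but gave a distance of -4745 bp, while the summits were 200 and 236 bp before the RefSeq start.

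Foxa2 and Foxa3 were each called in male misaligned ZT12 alone. The Foxa2 interval (chromosome 2, 148045247 to 148046030) covered 2 of the 3 RefSeq starts of the gene. It had 37 fragments (26.1 to 51.0) over 5.21, a fold enrichment of 6.12 and rank 925 of 5542. The Foxa3 interval (chromosome 7, 19016017 to 19016518) was in an intron by the authors' annotation, with its summit 7313 bp after the start. It had 39 fragments (27.7 to 53.3) over 5.60, a fold enrichment of 6.06 and rank 872. The counting intervals of the forkhead sites overlapped. The authors' distances were 1258 bp at Foxa2, which they annotated as a promoter, and 7271 bp at Foxa3.

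By the authors' distance 1 of the 8 intervals was within 1 kb of a start, the Hnf4aos intron site. By RefSeq starts of the 6 genes 4 were, with the Onecut1, Hnf4a and Foxa2 sites added, each of which the authors also annotated as a promoter. The same gap between the distances occurred elsewhere. Of the 1810 intervals that overlapped a RefSeq promoter window, 535 (29.6%) were over 1 kb away by the authors' distance, and so were all 3 at the lineage factors. Promoter windows were overlapped by 25.7% of all intervals.

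Nr2f2 carried 3 sites, and the one called most often was the one outside the gene. The intergenic interval (chromosome 7, 70346040 to 70346598) had its summits 20342 to 20431 bp after the start, past the end of the gene. Male misaligned ZT12 had 67 fragments (51.9 to 85.1) over 9.92 there, with a fold enrichment of 6.23 and rank 405 of 5542. Male control ZT12 had 37 (26.1 to 51.0) over 4.97, with a fold enrichment of 6.36 and rank 119 of 290. The misaligned library had more fragments and more background, and the folds were nearly equal. Female misaligned ZT0 had 35 fragments (24.4 to 48.7) over 5.99, with a fold enrichment of 5.15 and rank 395 of 1330.

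The scaled signal of the intergenic Nr2f2 site was 13.4 (9.87 to 17.7) in male misaligned ZT12, against 7.30 (4.80 to 10.5) in male control ZT12. The ratio of 1.84 was below the median of 2.13 over 213 intervals called in both. The 3 summits spread over 89 bp, beside a median of 72 bp for 319 intervals with 1 peak in each of 3 libraries.

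Within the Nr2f2 gene, an interval in an intron (chromosome 7, 70361413 to 70362119) had peaks in the male misaligned libraries of both times. It had 27 fragments (17.8 to 39.3) over 5.23 in ZT12 and 21 (13.0 to 32.1) over 4.32 in ZT0, which overlapped in their counting intervals. An interval annotated to an exon (70359755 to 70360102) was called in male misaligned ZT12 alone, with 26 fragments (17 to 38.1) over 4.36. Their ranks in male misaligned ZT12 were 2047 and 1775 of 5542. Both ranked below the intergenic site in that list.

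**Figure D4:**
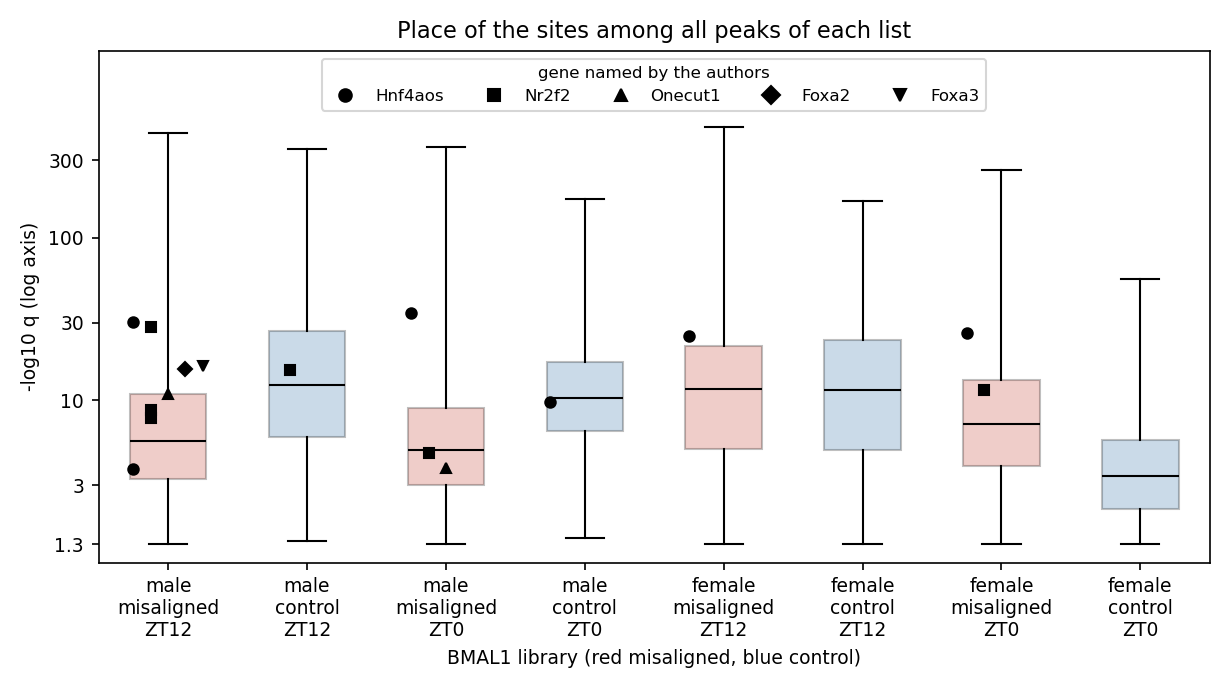
The -log10 q of all peaks of each list on a log axis (box, quartiles and median; whiskers, lowest to highest) with the peaks at the lineage factors as symbols. The lists hold 141 to 5542 peaks, so a symbol shows the place of a site within its own list only. In male misaligned ZT12 the 8 sites run from rank 365 to rank 3741.

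Whether misalignment changed the calls was addressed within each sex and time. In males at ZT12, 7 of the 8 sites were called under misalignment and not in the control, beside 75.5% of all intervals, and 1 in both (the Nr2f2 intergenic site), beside 3.17%. In males at ZT0, 2 sites were called under misalignment alone (22.6%), at Onecut1 and in the Nr2f2 intron, and 1 in both (3.79%). In females at ZT12 the Hnf4aos intron site was called under misalignment alone (1 of 8, background 2.09%). In females at ZT0 this site and the Nr2f2 intergenic site were (2 of 8, 17.6%). No site was called in the control alone in any pair (background 0.895% and 1.42% in males at ZT12 and ZT0, 0.965% and 1.95% in females).

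The length of the lists moved with these counts. With both lists of a pair shortened to the strongest peaks of the shorter, the male sites called under misalignment alone numbered 0 at ZT12 (2.17% of all intervals) and 0 at ZT0 (2.54%). At ZT12 the Nr2f2 intergenic site was then called in the control alone (1 of 8, 2.12%). In females there was 1 at ZT12 (1.04%) and 1 at ZT0 (2.37%), the Hnf4aos intron site both times. How much of the male counts goes with list length was not tested.

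Between the sexes, 7 sites were called in misaligned males and not females at ZT12 (background 76.2%), none the other way (0.611%) and 1 in both (2.47%), the Hnf4aos intron site. At ZT0 in misaligned mice 2 were called in males alone, at Onecut1 and in the Nr2f2 intron (18.6%), and 1 in females alone, the Nr2f2 intergenic site (11.0%). The Hnf4aos intron site was called in both (7.78%). Control males had 1 at ZT12 (2.90%) and 1 at ZT0 (4.19%) that control females did not, and there were none the other way (0.795% and 2.14%).

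Between the times, 5 sites were called in misaligned males at ZT12 and not ZT0 (64.7%), none at ZT0 alone (12.4%) and 3 at both (14.0%). In misaligned females none was called at ZT12 alone (0.980%), 1 at ZT0 alone, the Nr2f2 intergenic site (16.7%), and 1 at both (2.10%). Control males had the Nr2f2 intergenic site at ZT12 and not ZT0 (2.20%) and the Hnf4aos intron site at ZT0 and not ZT12 (3.35%).

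Other hepatocyte regulators were read from a list of 33 genes, 28 of them outside the genes above. The list was chosen with earlier results of these data known, so its counts are a description. In male misaligned ZT12, 10 of the 28 were the nearest gene to a peak, beside 12.7% of 21900 RefSeq protein-coding genes. The counts were 3 in male control ZT12 (0.712%), 5 in male misaligned ZT0 (5.06%), against 2 in male control ZT0 (1.04%). In females they were 2 in misaligned ZT12 (0.594%), 0 in control ZT12 (0.356%), 4 in misaligned ZT0 (3.82%) and 0 in control ZT0 (0.598%). Counting only peaks within 10 kb of the authors' start, 5 of the 28 had one in male misaligned ZT12 (8.90%) and 3 in female misaligned ZT0 (2.94%). Esrra, an orphan nuclear receptor of mitochondrial genes, and Ppara, the receptor that switches on fatty acid oxidation, had peaks in 6 libraries each. Those were the 6 other than the female controls. The Esrra peak in male misaligned ZT12, -392 bp from the authors' start, had 93 fragments over 11.3. The strongest Ppara peak, in female misaligned ZT0, had 63 over 6.03 and lay 36042 bp from the start. A separate Ppara site at -221 bp was the one called in all 6 libraries, with 47 over 8.86 in female misaligned ZT0.

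Nr0b2 (SHP), a corepressor in bile acid control, had peaks in 4 libraries, with a highest -log10 q of 10. They fell in 2 intervals, -160 and -1192 bp from the authors' start, the second in male misaligned ZT0 alone. Cebpa, a bZIP regulator of hepatocyte metabolism, had peaks in the misaligned male libraries, with a highest -log10 q of 10.2. These lay 4434 to 24715 bp from the authors' start. Onecut2, a relative of Onecut1, had a peak at -14435 bp in male misaligned ZT0 (8.57) and female misaligned ZT0 (4.88). Nr1i2 (the xenobiotic receptor PXR, 22.2), Nr1h4 (the bile acid receptor FXR, 13.4), Gata4 (7.66), Zhx2 (5.35), Rxra (4.78) and Nr2f6 had theirs in male misaligned ZT12 alone. The authors' distances were 15028 bp at Nr1i2, -32093 at Nr1h4 and 81531 at Rxra. They were 14998 and -16183 at Gata4, -95058 at Zhx2 and 269 at Nr2f6. The other 17 genes, Foxa1 and Cebpb among them, were the nearest gene to no peak.

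The pattern of calls of the Hnf4aos intron site was shared by 20 other intervals. By the mean difference in percentile rank of -log10 q over the 5 libraries, the nearest were at Gm23430 (8.29 percentile points), Phf7 (8.35), Hlf (9.94), Phf1 (10.2) and Gm23412 (11.7). Hlf encodes a PAR-bZIP factor of clock output, and its interval lay on chromosome 11 from 90390631 to 90391186. The 5 values describe calls in 5 libraries and no more.

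The nearest gene is 1 way to name a site. Within 10 kb of these 6 genes RefSeq coordinates gave 3 more intervals with other names, all called in male misaligned ZT12 alone. The one near Foxa2 was named 9030622O22Rik, an RNA gene beside it, and both near Foxa3 were named Irf2bp1, its neighbour.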

How the data were processed

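BMAL1 binding in liver was measured in 8 BMAL1 libraries, 1 per group. Per the submitters' processing notes, BWA 0.7.17-r1188, MACS2 2.2.7.1 and GRCm38 were used. The peak threshold and the use of IgG as control are not given in the sources used here. The deposited lists, called per library, hold a score (10 times -log10 q, truncated), the summit's fold enrichment as a ratio, and its -log10 p and -log10 q. The authors' merged table gives calls and the nearest gene.

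Each peak was assigned to its interval by 1 bp of overlap. Fragments and background were solved from fold enrichment and -log10 p (relative tolerance 0.0001), for 99.1% to 100% of the peaks of a list. On peaks simulated with the same formulas, those near background left out, they were right for 779 of 779, which checks the algebra only. Counts carry exact Poisson 95% intervals. RefSeq sequences and genes are of GRCm38.p6. Python 3.11.15, pandas 2.3.3 and scipy 1.17.1 were used.

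The members and lists were chosen with earlier results of these data known. Named were the 6 genes, regulators with a peak (at most 10 with values, 11 had one), the 5 intervals most like the site with most calls, and 3 clock genes. Also tried were -log10 q of at least 3 or 5, lists of equal length, distance limits, 50% overlap, RefSeq genes and CANNTG.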

Additional observations from a re-analysis of the deposited data

Results flagged for a closer look

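The intergenic Nr2f2 site was called on opposite sides of the same contrast in different groups, which compares calls and not levels. Between the sexes it was called in males and not females at ZT12, with a -log10 q of 28.3 in the misaligned and 15.3 in the control library. At ZT0 in misaligned mice it was called in females and not males (11.5). Between the times it was called at ZT12 and not ZT0 in misaligned males (28.3) and control males (15.3), and at ZT0 and not ZT12 in misaligned females (11.5). With 1 library per group these differences were not tested.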

How the results depend on the processing

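No paired analysis was possible because the counts come from no test and each group had 1 library, so the groups share fewer than 2 replicate numbers. Libraries were matched by sex and time alone, and no replicate could be left out. Of 83 recomputed values, 61 stayed within 1.5 times the reported one, but 23 of these were 0 in both and could not have fallen. The 61 also include every count at -log10 q of at least 3, a cut that removed no peak counted here. The lowest -log10 q was 3.76 at the lineage factor sites and 3.80 at the other regulators, both in male misaligned libraries. Counts at that cut therefore had to equal the reported ones. With each list shortened to 141 peaks, the sites called in males at ZT12 were 0 in the misaligned and 1 in the control library. In males at ZT0 they were 1 in the misaligned and 0 in the control library. Females had 1 in each misaligned library and 0 in each control library. With lists of equal length within a pair, the sites called under misalignment alone were 0 in males at both times. In females they were 1 at ZT12 and 1 at ZT0, and 1 went the other way in males at ZT12. At -log10 q of at least 5, male misaligned ZT0 had 1 site. Within 1 kb of the authors' start there was 1 site in male misaligned ZT12 and 0 in male control ZT12. At ZT0 there was 1 in male misaligned and 1 in male control. In females there was 1 in each misaligned library and 0 in each control. Within 10 kb there were 7 in male misaligned ZT12 and 0 in male control ZT12. At ZT0 there were 3 in male misaligned and 1 in male control. In females there was again 1 in each misaligned library and 0 in each control. No share over all intervals was computed for the counts at 141 peaks or at these distances. The list of 33 regulators had 9 genes within 10 kb in male misaligned ZT12 (14 at any distance). In female misaligned ZT0 it had 3 (5 at any distance). Without the genes chosen by their calls these were 5 of 28, against 10, and 3 of 28, against 4. Chosen after seeing the data, leaving out male misaligned ZT12 left 3 genes and 4 intervals, RefSeq starts put 4 intervals within 1 kb, and CACGTT was in 0 of 4 windows under an interval, where CANNTG was in 3 and CACGTG in 1. Depth is unknown, so an absent call sets no upper limit.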
